A study of Mus musculus with 30 samples.

Results

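The effect of sgRNAs against Ssrp1 was measured 3 days after optic nerve crush, as RNA counts per gene in sorted mouse retinal ganglion cells. The comparison set 3 SSRP1KO libraries against 3 NT libraries, 6 of the 30 libraries of the series. Its members were the autosomal genes of the count table, 22802 of 24033 symbols, of which 15965 passed the filter on low counts and were tested. In the SSRP1KO group, LSL-Cas9-GFP; Vglut2-Cre mice had received AAV2 with Ssrp1-targeting sgRNAs by intravitreal injection, and in the NT group the same virus carried non-targeting control sgRNAs. Mice of both groups therefore carried Cas9 and GFP, switched on by Cre in cells that express Vglut2, and in both the optic nerve was crushed 2 weeks after injection. After papain digestion of the retina, live cells were sorted on CD90.2, on GFP, on the mCherry that marks the sgRNA vector, or on a combination, so the sort did not require every cell to carry an sgRNA. The age and sex of the mice are not stated in the labels. Nothing there ties each library to an animal of its own, and a p-value here therefore reflects the spread between libraries, which may be technical.

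Ssrp1 and its partner Supt16 form FACT, a histone chaperone that loosens nucleosomes ahead of RNA polymerase and helps to rebuild them behind it. Retinal ganglion cells are the output neurons of the retina, and crushing the optic nerve cuts their axons. In the days that follow, they switch on stress and growth genes such as Atf3, Jun and Sprr1a, lose much of their mature gene expression, and begin to die.

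The 6 libraries held 21203925 to 30111517 counts, with 16502 to 17945 genes detected. One library stood apart: SSRP1KO replicate 2 had rank correlations of 0.966 and 0.974 with the other SSRP1KO libraries, which correlated with each other at 0.987, while the NT libraries correlated at 0.984 to 0.986. Its summed level of 10 rod photoreceptor markers was 4272 CPM (counts scaled to the size of the library), against 781 and 659 CPM in SSRP1KO replicates 1 and 3 and 709, 738 and 854 CPM in the NT libraries. The 9 cone markers summed to 374 CPM in it and to 14.6 to 33.0 CPM in the other 5 libraries, and the 12 endothelial and pericyte markers to 73.0 CPM against 5.86 to 14.1 CPM. The libraries also differed in the sexes they held: SSRP1KO replicate 2 had Y-linked genes at 0.603 CPM, NT replicate 2 had Xist at 5.66 CPM, and the other 4 had both at 116 to 176 CPM and 835 to 1281 CPM. Results are therefore given with and without SSRP1KO replicate 2 where it matters, and only autosomal genes are described.

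The 12 ganglion cell markers were present in every library, and in SSRP1KO replicate 2 they summed to 5451 CPM beside 4272 CPM of rod markers. They summed to 5784, 5451 and 6629 CPM in the SSRP1KO libraries and to 7800, 8178 and 7698 CPM in the NT libraries, with no overlap. The single markers did not all follow the sum: 6 had all SSRP1KO libraries below all NT libraries, and 4 had all above. Of all genes tested, 12.8% had all below and 13.2% all above. In bulk RNA, fewer cells of a type and less RNA per cell cannot be told apart. Of the 12, only Pou4f2, a transcription factor that specifies ganglion cells, passed the test, and it was higher. The 16 microglia and macrophage markers summed to 237, 441 and 492 CPM in SSRP1KO and 275, 242 and 218 CPM in NT, and none passed the test. Olig2 and Sox10 of the oligodendrocyte list, and 4 of 5 haemoglobin and red cell genes, were at 0 counts in all 6 libraries.

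**Figure D1:**
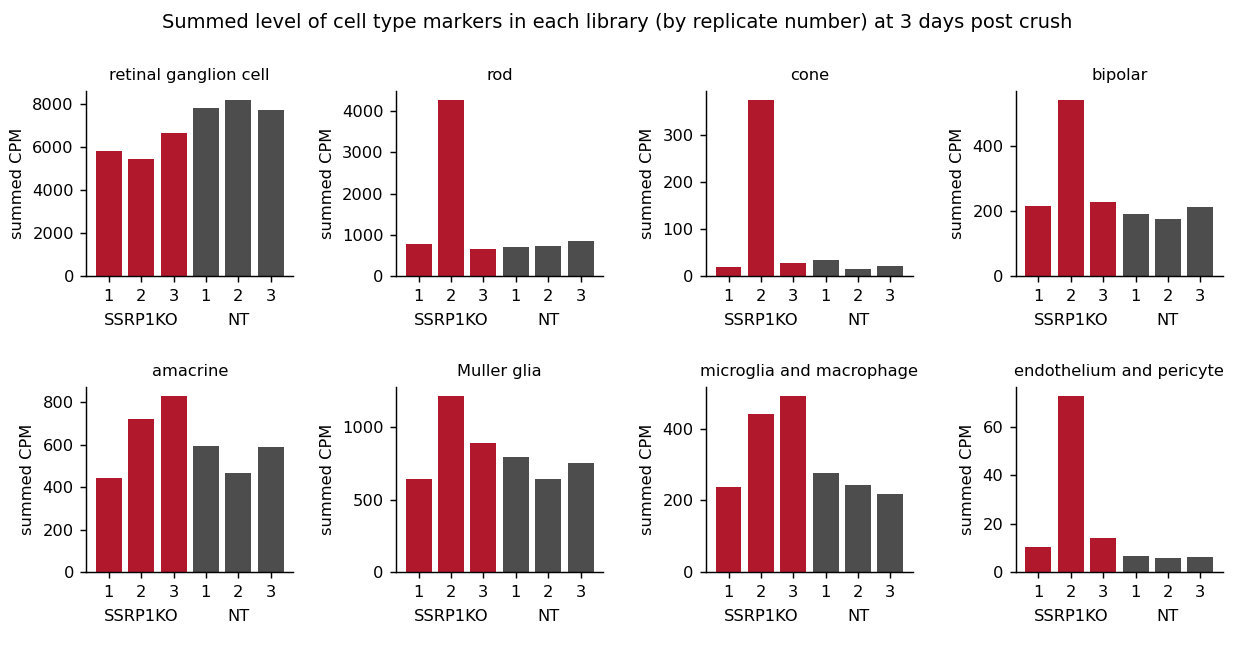
Bars show the summed CPM of the markers of 8 cell types in each library at 3 days post crush, SSRP1KO replicates 1 to 3 on the left (red) and NT replicates 1 to 3 on the right (grey). SSRP1KO replicate 2 holds the most rod, cone, bipolar, Muller glia and endothelial markers, and ganglion cell markers are lower in all SSRP1KO libraries than in all NT libraries.

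Ssrp1 itself (ENSMUSG00000027067.16, chromosome 2, 85037234 to 85047109, plus strand, GRCm38) stood at 37.8, 38.0 and 40.5 CPM in the SSRP1KO libraries and at 80.5, 102 and 89.6 CPM in the NT libraries. The groups were far apart, and the SSRP1KO libraries were close to each other. The log2 fold change was -1.23 ± 0.23 (SE, edgeR quasi-likelihood test, Benjamini-Hochberg adjusted p = 0.00896, n = 3 each). Without NT replicate 2 it was -1.12, with an edgeR adjusted p of 0.0633. The mRNA level does not show how much protein remained, since edited transcripts can still be counted. Supt16, the other FACT subunit, had 192, 208 and 205 CPM in SSRP1KO and 204, 205 and 201 CPM in NT, a log2 fold change of -0.01 ± 0.14 (edgeR adjusted p = 0.988), and its libraries overlapped.

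Of the 15965 autosomal genes tested, 175 (1.1%) passed an adjusted p of 0.05 in edgeR: 120 (0.752%) were higher and 55 (0.345%) lower in SSRP1KO. The 2 sets differed in level. The 55 lower genes were well expressed, with a median level of 216 CPM, and their log2 fold changes were modest, from -1.43 to -0.44. Those of the 120 higher genes ran from 0.53 upwards, at a median level of 6.15 CPM, and 41 of them had a mean under 5 CPM in both groups. The groups did not overlap for all 55 lower genes and for 119 of the 120 higher ones, the exception being Pcdh15, against 25.9% of all genes tested. The count depended on single libraries: it was 79, 50 (0.306%; 40 higher, 0.245%, and 10 lower, 0.0612%) and 104 without SSRP1KO replicate 1, 2 and 3, and 18, 19 and 21 without NT replicate 1, 2 and 3. All 175 genes kept their sign in those 6 fits, but where groups do not overlap, leaving out a single library can hardly turn a sign. DESeq2 called 552 genes, 421 higher and 131 lower, and 2270 genes (14.2%) had an unadjusted p under 0.05 in edgeR.

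**Figure D2:**
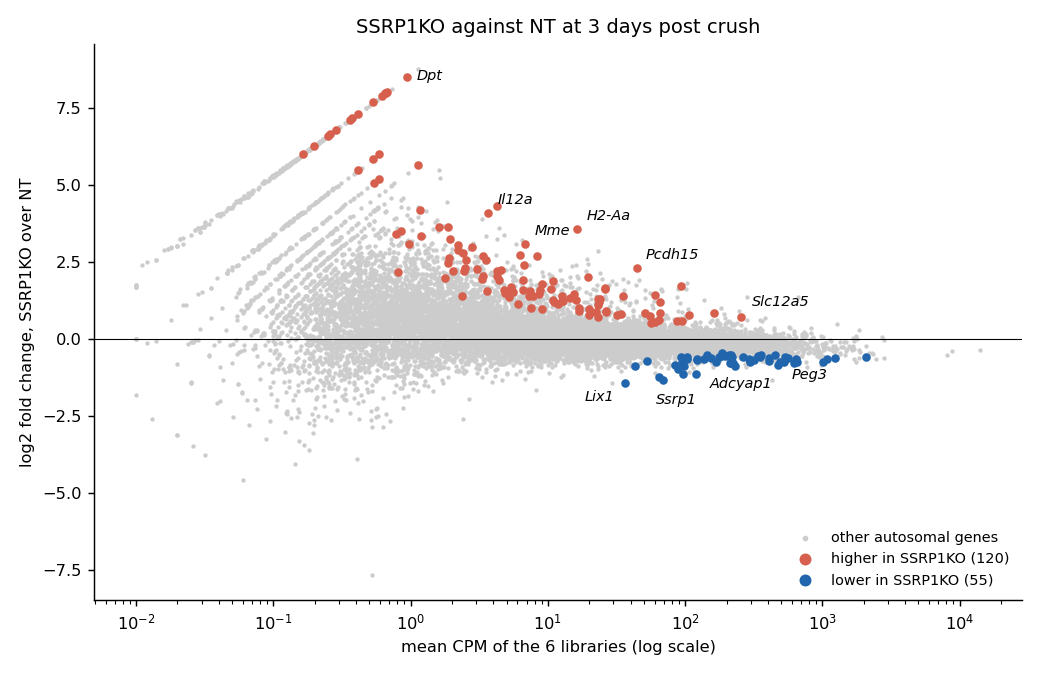
Each point is 1 of 15965 autosomal genes, with its mean CPM over the 6 libraries on a log axis and its log2 fold change of SSRP1KO over NT at 3 days post crush. The 120 genes that passed the test as higher (red) lie mostly at low levels, and the 55 that passed as lower (blue) at high levels. Points on slanting lines have 0 or a few counts in 1 group.

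A core of 11 genes was called whichever of the 6 libraries was left out. The 9 higher ones were Mme, Caly, Hrh3, Il12a, Ppp1r17, Rassf4, Kctd12, Hrasls and B930025P03Rik, and the 2 lower ones were Peg3 and Ncoa7. Rassf4, Kctd12, Hrasls and B930025P03Rik are named after their values were seen.

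Mme (ENSMUSG00000027820.12, chromosome 3, 63241537 to 63386030) encodes neprilysin, a membrane peptidase that degrades neuropeptides. It had 11.9, 11.7 and 13.1 CPM in SSRP1KO and 0.467, 1.66 and 2.22 CPM in NT. Every SSRP1KO library was far above the highest NT library, and the log2 fold change was 3.08 ± 0.48 (edgeR adjusted p = 0.00152). Caly (chromosome 7, 140069880 to 140082548), which encodes calcyon, a neuronal vesicle protein, had 17.7, 19.2 and 14.4 CPM in SSRP1KO and 4.40, 5.66 and 3.97 CPM in NT. Its fold change was 1.87 ± 0.27 on the log2 scale (edgeR adjusted p = 0.000723), and the groups were well apart. Hrh3, the presynaptic histamine H3 receptor, reached 5.19, 7.93 and 7.49 CPM in SSRP1KO and 1.17, 1.74 and 2.02 CPM in NT (log2 fold change 2.06 ± 0.34, edgeR adjusted p = 0.0024). Il12a, the p35 subunit of interleukin 12, was nearly absent from NT, at 0.234, 0.970 and 0 CPM, and stood at 7.22, 6.59 and 6.98 CPM in SSRP1KO. Its log2 fold change was 4.10 ± 0.66 (edgeR adjusted p = 0.00222).

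Ppp1r17, an inhibitor of protein phosphatases known from cerebellar Purkinje cells, had 16.3, 10.8 and 15.02 CPM in SSRP1KO and 3.35, 4.97 and 3.74 CPM in NT (log2 fold change 1.80 ± 0.30, edgeR adjusted p = 0.0024). Rassf4, a Ras-association domain protein, had the smallest adjusted p of all autosomal genes: 47.2, 34.5 and 37.2 CPM in SSRP1KO, 11.7, 10.9 and 15.03 CPM in NT, log2 fold change 1.66 ± 0.21, edgeR adjusted p = 0.000207. Kctd12, an auxiliary subunit of GABA-B receptors, rose by 1.42 ± 0.22 and the phospholipase-family gene Hrasls by 1.45 ± 0.22 on the log2 scale (edgeR adjusted p = 0.00152 for each). All SSRP1KO libraries were above all NT libraries for these genes.

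Peg3 (chromosome 7, 6703892 to 6730431), an imprinted zinc finger gene, had 309.9, 338 and 368 CPM in SSRP1KO and 641, 597 and 576 CPM in NT. The groups were well apart, and the log2 fold change was -0.84 ± 0.14 (edgeR adjusted p = 0.00372). Ncoa7, a nuclear receptor coactivator family member with a role in oxidative stress resistance, had 142, 151 and 188 CPM in SSRP1KO and 289, 258 and 275 CPM in NT (-0.78 ± 0.13, edgeR adjusted p = 0.00272).

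**Figure D3:**
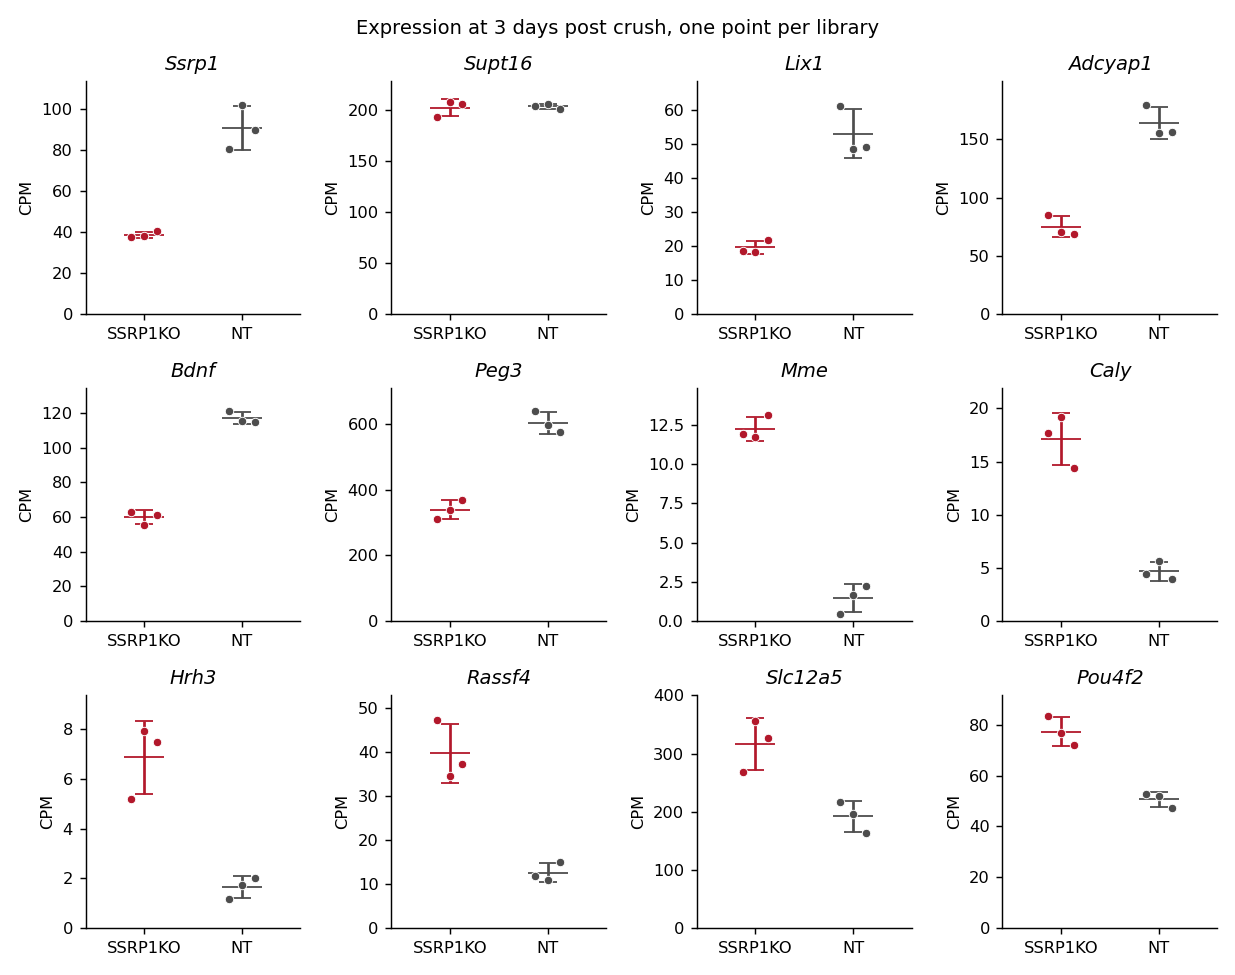
Points are the CPM of single libraries at 3 days post crush, with SSRP1KO on the left (red) and NT on the right (grey) in each panel, and lines show the mean and SD of 3 libraries. Ssrp1, Lix1, Adcyap1, Bdnf and Peg3 are lower and Mme, Caly, Hrh3, Rassf4, Slc12a5 and Pou4f2 higher in all SSRP1KO libraries, while Supt16 overlaps.

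The largest decrease was that of Lix1 (ENSMUSG00000047786.12, chromosome 17, 17402672 to 17459387), a gene linked to motor neuron disease in cats. It had 18.6, 18.4 and 21.9 CPM in SSRP1KO and 61.3, 48.7 and 49.1 CPM in NT, a log2 fold change of -1.43 ± 0.30 (edgeR adjusted p = 0.019). Between NT cells 4 days post crush and NT cells without crush, Lix1 was higher by 4.56 on the log2 scale. Adcyap1 (chromosome 17, 93199017 to 93206537) encodes the neuropeptide PACAP, which promotes neuron survival. Its 85.2, 70.6 and 68.8 CPM in SSRP1KO stood against 179, 155 and 156 CPM in NT (-1.13 ± 0.21, edgeR adjusted p = 0.00843). Bdnf, the neurotrophin that binds TrkB, had 63.2, 55.4 and 61.3 CPM in SSRP1KO and 121, 116 and 115 CPM in NT (-0.97 ± 0.24, edgeR adjusted p = 0.0421). The 3 genes had no overlap between groups, which the rule for naming them required. The call of Lix1 was lost on leaving out any library except SSRP1KO replicate 3 (highest edgeR adjusted p 0.0986). That of Adcyap1 was lost without NT replicate 1 (edgeR adjusted p = 0.0564), and that of Bdnf without any one library (0.0849 to 0.167).

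Other genes among the 15 largest decreases encode receptors and guidance molecules of neurons. Gabrg3, a GABA-A receptor subunit, had 30.4, 43.9 and 44.1 CPM in SSRP1KO and 105, 87.7 and 105 CPM in NT (-1.33 ± 0.33, edgeR adjusted p = 0.0371). Dcc, the netrin receptor, had 163, 163 and 162 CPM in SSRP1KO and 321, 297 and 283 CPM in NT (-0.89 ± 0.22, edgeR adjusted p = 0.0434). Robo2, a receptor for Slit proteins, had 157, 169 and 166 CPM in SSRP1KO and 304, 286 and 256 CPM in NT (-0.78 ± 0.20, edgeR adjusted p = 0.0421). Dcc and Robo2 were the called members of the 39 axon guidance genes measured, against 0.345% of all genes called lower, and the list's median log2 fold change was -0.03 against 0.05 over all genes. Arhgef3, a guanine nucleotide exchange factor, fell by 1.12 ± 0.22 on the log2 scale (edgeR adjusted p = 0.014), and Tfap2d, a transcription factor of the AP-2 family, by 0.89 ± 0.20 (edgeR adjusted p = 0.0254). Ano4, Hs3st5, Akap2 and Fam171b completed the 15, with log2 fold changes from -0.88 to -0.77. Leaving out single libraries ended the calls of Gabrg3, Dcc, Robo2, Tfap2d, Ano4, Hs3st5 and Akap2 for each of the 6 libraries, and those of Arhgef3 and Fam171b for each NT library and SSRP1KO replicate 1 (edgeR adjusted p 0.0509 to 0.0722).

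Among the genes that rose were some of mature neurons, but lists of such genes leaned both ways. The median log2 fold change was -0.10 for 21 ganglion cell identity genes, -0.19 for 26 synaptic vesicle genes and -0.19 for 28 sodium and potassium channels. It was 0.13 for 29 neurotransmitter receptors and 0.21 for 29 ganglion cell subtype markers, against 0.05 over all genes. At an unadjusted p under 0.05 in edgeR, 6 identity genes were lower and 6 higher, against 4.73% and 9.49% of all genes. For synaptic genes these were 8 and 2. Slc12a5, which encodes KCC2, the transporter that keeps neuronal chloride low, had 268, 356 and 326 CPM in SSRP1KO and 216, 196 and 163 CPM in NT (0.72 ± 0.15, edgeR adjusted p = 0.0175). It was not among the named largest changes and is given after its values were seen. Its call was lost without SSRP1KO replicate 2 (edgeR adjusted p = 0.0817), NT replicate 2 (0.0691) and NT replicate 3 (0.105). Pou4f2 had 83.2, 76.6 and 72.0 CPM in SSRP1KO and 52.9, 51.9 and 47.3 CPM in NT (0.61 ± 0.15, edgeR adjusted p = 0.034), and leaving out any one library ended its call (edgeR adjusted p 0.0532 to 0.162). In NT cells 4 days post crush against NT cells without crush, the log2 fold changes of Slc12a5 and Pou4f2 were -2.75 ± 0.16 and -2.22 ± 0.15. Fzd7, a Wnt receptor, rose by 2.04 ± 0.37 (edgeR adjusted p = 0.00843), with 6.19, 5.30 and 4.88 CPM in SSRP1KO and 0.934, 1.98 and 1.05 CPM in NT. Without NT replicate 1 or 3 its adjusted p was 0.0877 and 0.0605. Hapln1, a link protein of perineuronal matrix, and Kctd19 also rose, by 2.58 ± 0.62 (edgeR adjusted p = 0.034) and 2.28 ± 0.47 (0.0178). The call of Hapln1 was lost on leaving out any one library (up to 0.207) and that of Kctd19 on leaving out any NT library (up to 0.108).

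Further called genes, named here after their values were seen, act in neuronal signalling and transport. Npy1r, a receptor for neuropeptide Y, had 18.3, 11.6 and 17.6 CPM in SSRP1KO and 5.33, 5.54 and 4.40 CPM in NT. It rose by 1.64 ± 0.31 on the log2 scale (edgeR adjusted p = 0.0105), and its call was kept in 3 of the 6 fits that left out a library. Rgs2, a brake on G protein signalling, had 101, 80.3 and 93.7 CPM in SSRP1KO and 55.8, 31.6 and 31.1 CPM in NT (1.21 ± 0.26, edgeR adjusted p = 0.0221, kept in 3 of 6). Hpca, the calcium sensor hippocalcin, and Cacna1g, a T-type calcium channel, rose by 0.86 ± 0.20 and 0.82 ± 0.19 (0.0334 and 0.0286), with calls kept in 1 and 0 of 6. Among the genes that fell, Map1a, Dst and Ank2 encode large cytoskeletal linkers of axons. Ank2, ankyrin-B, had 808, 832 and 885 CPM in SSRP1KO and 1328, 1325 and 1258 CPM in NT (-0.63 ± 0.15, edgeR adjusted p = 0.031). Dst, dystonin, had 936, 963 and 1044 CPM in SSRP1KO and 1542, 1549 and 1394 CPM in NT (-0.61 ± 0.15, edgeR adjusted p = 0.0442), and neither call was kept in any of the 6 fits. The groups did not overlap for these genes.

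Other large increases were called only in fits that held SSRP1KO replicate 2. H2-Aa, a chain of MHC class II, had 7.05, 65.8 and 17.8 CPM in SSRP1KO and 2.22, 2.47 and 2.88 CPM in NT (3.58 ± 0.88, edgeR adjusted p = 0.0374, and 0.274 without that library). C3, the complement component, had 4.62, 28.4 and 9.98 CPM in SSRP1KO and 2.61, 1.37 and 2.65 CPM in NT (2.69 ± 0.65, edgeR adjusted p = 0.0351, and 0.278 without it). Rgs5, a pericyte gene, had 3.33, 14.4 and 3.38 CPM in SSRP1KO and 1.71, 1.90 and 0.973 CPM in NT. Pcdh15, a photoreceptor and hair cell cadherin, had 20.2, 177 and 24.2 CPM in SSRP1KO and 12.8, 11.4 and 20.3 CPM in NT, and its edgeR adjusted p was 0.0303 with and 0.667 without that library. Car8, Dock1, Kcnj2, Glb1l2 and Kcnh6, also among the 15 largest increases, lost their call without it as well (edgeR adjusted p 0.0692 to 0.51). All 9 of these genes also lost it on leaving out at least 2 of the NT libraries (up to 0.209). In 16 of the 120 higher genes, SSRP1KO replicate 2 was more than 2 times above both other SSRP1KO libraries. The rod, cone and endothelial markers were highest in the same library, and their part in these results was not tested.

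A further 14 of the 120 higher genes had 0 counts in all 3 NT libraries. Dpt, an extracellular matrix gene, had 66, 38 and 58 counts in SSRP1KO, which makes it at least 48.0-fold higher than a floor of 3 counts over the NT group. Cd2 (28, 44 and 38 counts) and Cd6 (5, 38 and 21 counts) are lymphocyte genes, and Oas2 (35, 42 and 30 counts) is an interferon-induced gene. They were at least 34.1-fold, 20.9-fold and 33.2-fold higher than that floor. These 4 genes, named after their values were seen, lost their call on leaving out each of the NT libraries, Cd6 also without SSRP1KO replicate 2, and Dpt and Cd2 on leaving out each SSRP1KO library (edgeR adjusted p up to 0.171). The 6 markers of T cells and neutrophils summed to 1.30, 5.77 and 2.93 CPM in SSRP1KO and to 0.389, 0.243 and 0.234 CPM in NT, and their part in the lymphocyte genes was not tested. The floor covers counting error only, as molecules were not told apart from their PCR copies.

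Promoter sequence was read from RefSeq for genes whose fold changes led the lists. The 250 bases before the most upstream RefSeq start (GRCm38.p6) of Lix1, Adcyap1, Peg3 and Caly are given 5′ to 3′ on the gene's strand, with matches to any motif searched in capitals. They lie at chr17:17402436-17402685 (plus), chr17:93198767-93199016 (plus), chr7:6730420-6730669 (minus) and chr7:140082549-140082798 (minus).
Lix1: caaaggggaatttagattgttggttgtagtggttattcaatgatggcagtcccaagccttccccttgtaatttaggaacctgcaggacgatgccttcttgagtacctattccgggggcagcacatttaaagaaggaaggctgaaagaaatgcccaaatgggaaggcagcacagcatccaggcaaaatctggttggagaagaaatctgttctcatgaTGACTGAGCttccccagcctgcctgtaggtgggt
Adcyap1: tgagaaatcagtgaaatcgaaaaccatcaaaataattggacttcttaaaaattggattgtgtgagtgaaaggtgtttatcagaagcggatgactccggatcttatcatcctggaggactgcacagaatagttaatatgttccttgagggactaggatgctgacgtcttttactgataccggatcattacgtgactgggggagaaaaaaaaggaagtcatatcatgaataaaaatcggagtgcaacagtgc
Peg3: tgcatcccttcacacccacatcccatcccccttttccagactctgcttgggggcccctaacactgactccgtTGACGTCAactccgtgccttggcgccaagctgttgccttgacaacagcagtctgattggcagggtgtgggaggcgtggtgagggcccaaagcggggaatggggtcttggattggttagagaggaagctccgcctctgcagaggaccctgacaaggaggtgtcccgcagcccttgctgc
Caly: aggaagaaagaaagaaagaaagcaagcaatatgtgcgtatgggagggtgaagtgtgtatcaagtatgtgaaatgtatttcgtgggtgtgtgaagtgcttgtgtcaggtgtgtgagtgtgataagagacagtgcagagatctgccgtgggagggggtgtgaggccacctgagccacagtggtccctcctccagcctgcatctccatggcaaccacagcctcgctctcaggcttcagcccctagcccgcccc
The capitals mark an antioxidant response element (TGACNNNGC) in Lix1 and a cyclic AMP response element (TGACGTCA) in Peg3, and the windows of Adcyap1 and Caly held none of the motifs. Both strands were searched for these and for the AP-1 site (TGANTCA), the C/EBP-ATF element (TGATGNAA) and the E-box (CACGTG). A promoter was found for 39 of the 55 lower genes, 82 of the 120 higher genes and 11768 of all 15965. The antioxidant element was present in 17.9% of lower genes, 7.32% of higher genes and 12% of all genes, the E-box in 12.8%, 7.32% and 7.99%, and the cyclic AMP element in 2.56%, 2.44% and 2.62%. The AP-1 site was in 0%, 7.32% and 4.58%, and the C/EBP-ATF element in 0%, 1.22% and 2.14%. These shares rest on few genes and are a description of the letters in these windows.

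Genes that respond to crush were set against the sgRNA difference with libraries that the 3-day comparison did not use. In NT cells 4 days after crush against NT cells without crush, 2236 genes (14%) were higher and 2082 (13%) lower in edgeR. They are called crush-induced and crush-repressed here, but these 2 groups also differed in sex. Xist stood at 3023, 4353 and 3352 CPM in NT at 4 days and at 190, 0.364 and 0.697 CPM in NT without crush. The classes were taken without a sex covariate, and the part of sex in them was not tested. Of the 2236 crush-induced genes, 42 (1.88%) were called lower and 5 (0.224%) higher in SSRP1KO at 3 days, against 0.345% and 0.752% of all autosomal genes. Of the 2082 crush-repressed genes, 62 (2.98%) were called higher and 2 (0.0961%) lower. Their median log2 fold changes at 3 days were -0.17 and 0.12, and that of all genes was 0.05; 71% of the crush-induced genes lay below 0, against 45.1% of all genes. Seen from the other side, 42 of the 55 genes that fell were crush-induced, and 62 of the 120 that rose were crush-repressed. Without SSRP1KO replicate 2, the calls were 9 lower and 2 higher among crush-induced genes, and 27 higher and 0 lower among crush-repressed genes, with medians of -0.16 and 0.12. Calls of crush-induced genes as lower fell to 2, 3 and 4 without NT replicate 1, 2 and 3 and to 5 and 19 without SSRP1KO replicate 1 and 3, and those of crush-repressed genes as higher to 12, 10 and 10 and to 33 and 37.

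**Figure D4:**
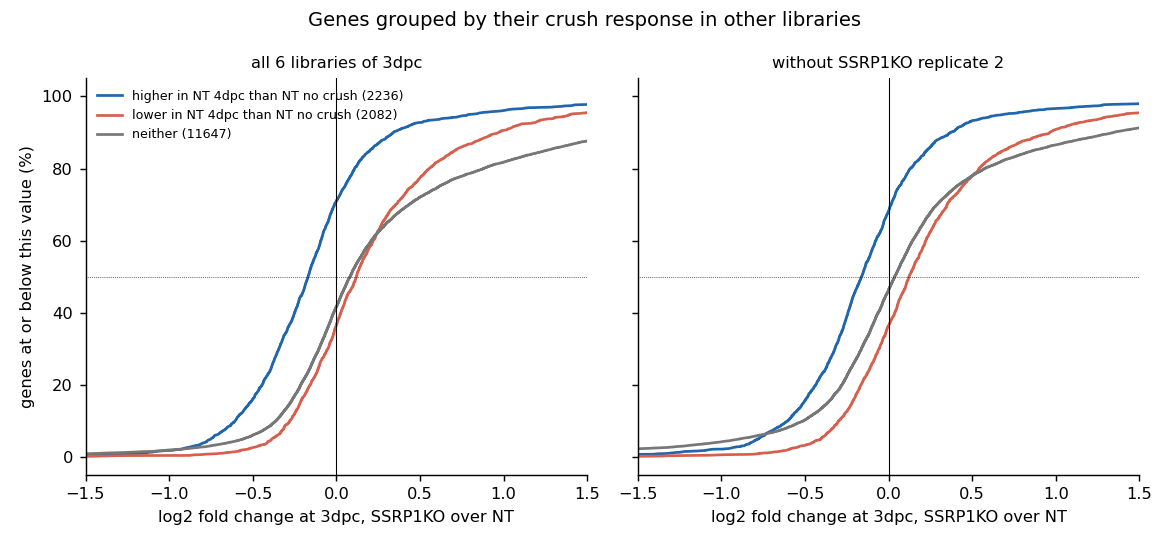
Curves give the percent of genes at or below a log2 fold change of SSRP1KO over NT at 3 days post crush, for 2236 crush-induced genes (blue), 2082 crush-repressed genes (red) and the remaining autosomal genes (grey), classes taken from NT libraries at 4 days post crush and without crush. The blue curve lies to the left, with a median of -0.17, and the red one has a median of 0.12; leaving out SSRP1KO replicate 2 (right panel) gives -0.16 and 0.12.

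The integrated stress response, in which Atf4 and its partners raise amino acid synthesis and uptake genes, is among the main programmes of crushed ganglion cells. None of its 32 measured genes passed the edgeR test at 3 days, 13 of them were lower at an unadjusted p under 0.05 (4.73% of all genes tested were), and DESeq2 called 1 lower. In their values, 31 of 32 had a log2 fold change below 0, with a median of -0.57, and in 24 all SSRP1KO libraries were below all NT libraries, which held for 12.8% of all genes tested. Their summed level was 3574, 3119 and 3578 CPM in SSRP1KO and 4618, 5004 and 4905 CPM in NT. Atf3, the injury transcription factor, had 284, 254 and 316 CPM in SSRP1KO and 418, 490 and 449 CPM in NT (-0.67 ± 0.25, edgeR adjusted p = 0.191). Asns, asparagine synthetase, had 355, 300 and 322 CPM in SSRP1KO and 467, 491 and 521 CPM in NT (-0.60 ± 0.20, edgeR adjusted p = 0.142). The 20 aminoacyl-tRNA synthetases had a median of -0.31, all 20 were below 0 and none was called by edgeR, against 7 lower at an unadjusted p under 0.05 (4.73% of all genes) and 1 by DESeq2. At 4 days post crush the stress response and synthetase lists had medians of -0.61 and -0.59, with 6 and 9 members called lower, against 4.13% of all genes.

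Of 33 regeneration-associated genes none was called by edgeR, 9 were lower at an unadjusted p under 0.05 (4.73% of all genes) and DESeq2 called 1. Of the 33, 29 were below 0 and their median was -0.38, and at 4 days 8 were called lower, against 4.13% of all genes. Sprr1a, a small proline-rich protein of growing axons, had 199, 226 and 310 CPM in SSRP1KO and 573, 619 and 652 CPM in NT, with a wide error (-1.33 ± 0.69, edgeR adjusted p = 0.395). Gap43, a growth cone protein, had 286, 230 and 311 CPM in SSRP1KO and 453, 469 and 419 CPM in NT (-0.70 ± 0.24, edgeR adjusted p = 0.149), and Klf6, a zinc finger factor of axon growth, 352, 365 and 378 CPM in SSRP1KO and 529, 580 and 558 CPM in NT (-0.61 ± 0.18, edgeR adjusted p = 0.0897). Among 23 apoptosis genes none was called by edgeR or DESeq2, 1 was lower at an unadjusted p under 0.05 (4.73% of all genes), and the median was -0.11. Without SSRP1KO replicate 2 the medians of the stress response, synthetase and regeneration lists were -0.50, -0.26 and -0.28.

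Other lists had medians above 0. Of 30 measured histone genes, 2 rose, against 0.752% of all genes: Hist2h2be, an H2B gene, with 34.5, 35.2 and 29.2 CPM in SSRP1KO and 19.3, 9.78 and 10.9 CPM in NT (1.30 ± 0.28, edgeR adjusted p = 0.0221), and Hist1h1a, a linker histone gene, with 1.40, 1.55 and 1.72 CPM in SSRP1KO and 0.117, 0.121 and 0.156 CPM in NT (3.52 ± 0.70, edgeR adjusted p = 0.0141). Hist2h2be lost its call without NT replicate 2 or 3 or SSRP1KO replicate 1 or 2, and Hist1h1a on leaving out each NT library (edgeR adjusted p up to 0.148). The median over the list was 0.41, and replication-dependent histone genes resemble each other, so counts may be split between copies. Of the 33 interferon-stimulated genes none was called by edgeR, 10 were higher at an unadjusted p under 0.05 (9.49% of all genes tested were) and DESeq2 called 1. Of the 33, 32 were above 0, 22 had all SSRP1KO libraries above all NT libraries (13.2% of all genes tested), and the median was 1.16, or 0.95 without SSRP1KO replicate 2. Their summed level was 979, 1414 and 1038 CPM in SSRP1KO and 547, 493 and 489 CPM in NT. H2-D1, an MHC class I gene, had 208, 185 and 186 CPM in SSRP1KO and 78.9, 84.6 and 79.7 CPM in NT (1.25 ± 0.45, edgeR adjusted p = 0.178). The list's median was -0.87 without crush, -3.09 at 1 day, -1.66 at 2 days and -0.99 at 4 days, so its sign at 3 days was not that at the other times. The summed level of the 16 microglia and macrophage markers, given above, overlapped between the groups. Of these markers only 1 was below 0, and their median was 0.998, or 0.85 without SSRP1KO replicate 2. In 4 of them all SSRP1KO libraries were above all NT libraries (13.2% of all genes tested), and in 1 all were below (12.8%). At an unadjusted p under 0.05 in edgeR, 5 were higher (9.49% of all genes tested). Their part in the interferon list was not tested.

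Over the 910 distinct list genes measured, 10 were called higher and 10 lower, against 0.752% and 0.345% of all genes. Of 29 neurotransmitter receptors, Hrh3 and Grik1, a kainate receptor subunit, rose and Gabrg3 fell. Grik1 (7.62, 20.1 and 9.88 CPM in SSRP1KO and 3.70, 4.08 and 5.88 CPM in NT) is also a bipolar cell marker, was highest in SSRP1KO replicate 2 and had an edgeR adjusted p of 0.0223 with and 0.207 without it. Map1a, a microtubule protein, was the called one of 30 cytoskeletal genes (-0.74 ± 0.17, edgeR adjusted p = 0.0303), and Chd2, a chromatin remodeller, that of 25 elongation genes (-0.67 ± 0.15, 0.0301). Gstm1, a glutathione transferase, rose by 1.12 ± 0.21 among 23 antioxidant genes (edgeR adjusted p = 0.00843, and 0.0968 without NT replicate 1), and Rps12 by 1.12 ± 0.25 among 77 ribosomal protein genes (0.0232). Scd1, a fatty acid desaturase, Kcng4, a marker of alpha ganglion cells, and Hspa1b, an inducible heat shock gene, were also called higher, and Cast, the calpain inhibitor calpastatin, lower. Leaving out single libraries ended the calls of Map1a and Cast in all 6 fits and those of Chd2, Rps12, Scd1, Kcng4 and Hspa1b in 4 or 5 of them.

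The 55 genes that fell had a median genomic span of 134 kb, and 69.1% of them reached 100 kb, against 14.2% of all autosomal genes tested (median 23.1 kb) and 22.5% of the 3868 genes with a mean of at least 50 CPM (median 40.4 kb), which are nearer to them in level. Without SSRP1KO replicate 2, the 10 lower genes had a median of 114 kb. The genes that rose had a median span of 25.3 kb. Over genes with at least 5 CPM, the median log2 fold change at 3 days declined with span, from 0.01 for 2193 genes under 10 kb to -0.21 for 434 genes of 300 kb or more. Without SSRP1KO replicate 2 these medians were 0.07 and -0.25. The long genes also had a median of -0.38 without crush and -0.27 at 4 days, so the lean was not particular to 3 days. The share of counts from ribosomal RNA precursor Rn45s, given as a sign of RNA makeup, was 12.8, 6.71 and 8.53% in SSRP1KO and 5.46, 7.56 and 8.17% in NT, and its part in the span pattern was not tested.

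The sgRNA effect was then followed over time, with libraries of other times. The same contrast called 626 genes (3.92%; 1.44% higher, 2.48% lower) without crush, 3 (0.0188%) at 1 day, 12 (0.0752%) at 2 days and 1099 (6.88%; 2.76% higher, 4.13% lower) at 4 days post crush. Several of these counts moved with the setting. With the sex covariate they were 19 without crush and 0 at 2 days. DESeq2 called 1178, 28 and 618 genes without crush, at 1 day and at 2 days. The groups also differed in sex at other times. At 4 days Y-linked genes summed to at most 0.094 CPM in SSRP1KO and to 74.9, 0 and 76.6 CPM in NT. At 1 day Xist was at most 0.507 CPM in SSRP1KO and at least 1053 CPM in NT. All 55 genes lower at 3 days were also below 0 at 4 days, and 53 of them were called lower there, with a median log2 fold change of -0.80. Of the 120 higher genes, 111 were above 0 at 4 days and 60 were called higher, with a median of 1.06. Of all genes tested, 51% were above 0 at 4 days. Mme had a log2 fold change of 3.81 ± 0.52 at 4 days (edgeR adjusted p = 7.76e-05) and Il12a of 5.93 ± 0.82 (7.76e-05), while Peg3 had -1.05 ± 0.14 (7.76e-05). Without crush, 12 of the 120 were called higher and 2 lower, and 7 of the 55 were called lower. At 2 days the medians were 0.48 and -0.31.

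Whether the effect at 3 days differed from that at other times was tested by an interaction term. Against no crush, 96 genes (0.601%) differed, 75 (0.47%) with a more positive effect at 3 days and 21 (0.132%) with a more negative one. Mme, Hrh3, Caly, Ppp1r17, Pou4f2 and Cacng5 had a more positive effect after crush, and Lix1 a more negative one (edgeR adjusted p 0.00027 to 0.0154). Pou4f2 had an effect of -0.50 ± 0.14 without crush (edgeR adjusted p = 0.0476) and 0.61 ± 0.15 at 3 days, so the sign of its difference turned. Atf3 differed by -2.72 ± 0.38 (edgeR adjusted p = 0.00063): its effect was 2.05 ± 0.29 without crush and -0.67 ± 0.25 at 3 days. Y-linked genes summed to at most 0.128 CPM in the SSRP1KO no-crush libraries and to 167 to 189 CPM in the NT no-crush libraries, and with a sex covariate 12 genes differed, among them Hrh3, Ppp1r17, Cacng5 and Atf3 but not Mme, Caly, Pou4f2 or Lix1 (edgeR adjusted p 0.0589 to 0.0706). Between 3 and 2 days and between 3 and 4 days, edgeR called 0 genes different (0% in each), with 1568 (9.82%) and 775 (4.85%) genes at an unadjusted p under 0.05, and DESeq2 called 95 and 3. At 2 days, NT replicate 3 had rank correlations of 0.95 and 0.956 within its group, and SSRP1KO replicate 5 of 0.93 and 0.934. Without the 3 libraries of other times that stood apart, edgeR called 80 and 0 genes different. The 0 between 3 and 2 days therefore does not show that the effects were alike.

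**Figure D5:**
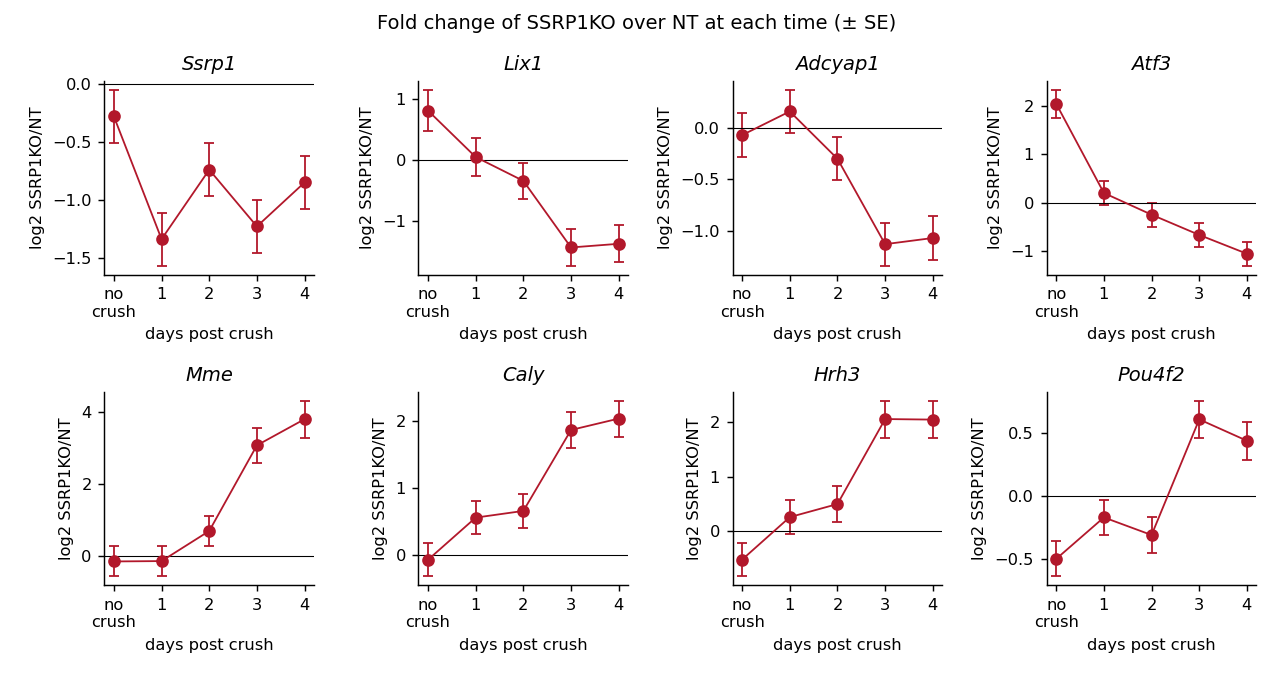
Points are the log2 fold change of SSRP1KO over NT at each time, with bars of 1 SE from the edgeR fit over 30 libraries, for 8 genes. At 3 days Lix1 and Adcyap1 lie below 0 and Mme, Caly and Hrh3 above it, Pou4f2 is at -0.50 without crush and 0.61 at 3 days, and Atf3 declines from 2.05 without crush to -0.67 at 3 days.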

How the data were processed

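Per the labels' protocols, libraries came from total RNA of sorted cells (SMART-Seq v4, 69-base paired reads). What the authors deposited are raw read counts, 1 whole number for each gene symbol and library. The submitters' processing notes name GRCm38 (mm10), bcl2fastq 2.17, STAR and HTSeq; the annotation, strand setting and handling of multi-mapped reads were not stated there, so near-identical, overlapping and antisense genes cannot be told apart. Of 24060 rows, 27 whose symbols had become dates (at most 0.275% of counts) were left out. GENCODE M21 and RefSeq names placed all but 130 of the remaining symbols on chromosomes.

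Counts were tested in edgeR 4.0.16 (R 4.3.3) with TMM, filterByExpr on the 10 groups, and a quasi-likelihood model of all 30 libraries, each of the 10 groups having its own mean, which leaves 20 residual degrees of freedom. Tests were two-sided, with Benjamini-Hochberg adjustment over 16621 genes and a threshold of 0.05. CPM values use TMM-scaled library sizes. DESeq2 1.42.0, RLE scaling, other low-count filters, a sex covariate, the 6 libraries alone, a replicate block and leaving out libraries were alternatives.

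Genes named were Ssrp1, Supt16, the 15 largest called changes each way with at least 5 CPM and no overlap, 2 called members per list each way and 3 per difference each way; others are marked where they occur. Some genes that this rule picks are not reported here. The 33 gene lists and 14 marker lists, like the members, were chosen with earlier results of these data known. Among the 6 libraries of the 3-day comparison, no replicates were duplicates (smallest chi-square per degree of freedom 15.7), and the other groups were not checked. On simulated counts (16291 genes), the steps recovered 43% of changes of log2 size 1 and 81% of size 2 in the 3-day comparison, with 3 false calls. Apart from the added changes, each simulated gene had the same mean in all groups. The simulation held no crush response, mix of sexes or library that stood apart, so these rates need not hold for the real libraries. Figures were drawn with Python 3.11.15 and matplotlib 3.10.9.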

Additional observations from a re-analysis of the deposited data

Results flagged for a closer look

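The sgRNA effect at 3 days post crush minus that without crush (log2, interaction term in edgeR) passed the threshold for 11 named genes. It was 3.23 for Mme, 2.58 for Hrh3, 1.93 for Caly, 2.61 for Ppp1r17, 1.43 for Cacng5, 1.11 for Pou4f2 and 1.06 for Gabrb2. It was -2.24 for Lix1, -2.72 for Atf3, -3.37 for Itga5, an integrin subunit, and -4.46 for Slc6a12, a betaine and GABA transporter. Atf3, Itga5 and Slc6a12 were called higher in SSRP1KO than in NT without crush, by 2.05 ± 0.29, 2.63 ± 0.41 and 4.13 ± 0.58 (edgeR adjusted p 0.000408 to 0.00103), and were not called at 3 days. Cacng5, an AMPA receptor auxiliary subunit, and Gabrb2, a GABA-A receptor subunit, were called lower without crush, by -0.86 ± 0.13 and -0.77 ± 0.13 (edgeR adjusted p 0.000872 and 0.00174). The no-crush groups differed in sex and SSRP1KO no-crush replicate 3 stood apart from its group, with rank correlations of 0.946 and 0.957. In addition, 7 of 16 microglia markers were called higher and 5 of 12 ganglion cell markers lower in SSRP1KO without crush, against 1.44% and 2.48% of all genes. The part of replicate 3 and of the markers was not tested. With the sex covariate, 7 of the 11 differences were called, and those of Mme, Caly, Pou4f2 and Lix1 were not (edgeR adjusted p 0.0589 to 0.0706). On leaving out each library of the 2 times in turn, 10 of the 11 stayed called every time, and Lix1 was lost without NT no-crush replicate 2 (edgeR adjusted p = 0.0656).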

How the results depend on the processing

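All numbers here are counts of autosomal genes called unless named otherwise. At 3 days post crush (175; 120 higher, 55 lower), DESeq2 called 552 (421 higher, 131 lower), the 6 libraries alone 668 (297, 371), and the fit without 3 libraries of other times that stood apart, chosen after seeing the data, 1018 (597, 421). Leaving out each 3-day library gave 18 to 104 calls, 15 to 82 higher and 3 to 22 lower. RLE scaling, no filter, a filter at 5 CPM, a sex covariate and leaving out Rn45s gave 177, 188, 163, 160 and 174, of which 172, 166, 127, 123 and 163 were among the 175.

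At 3 days the labels give both groups replicate numbers 1 to 3. Same-numbered libraries did not deviate together (correlations of -0.07, -0.12 and -0.03). In both groups, replicates 1 and 3 held RNA of both sexes and replicate 2 mainly that of a single sex. Whether same-numbered libraries were prepared together is not stated and was not tested. The replicate block called 274 (119 lower) at 3 days, 363 (206 lower) in the 6 libraries alone, 941 without crush, 48 at 1 day, 325 at 2 days, 1 for the 3-day minus 4-day difference, 76 crush-induced and 9 crush-repressed genes as lower, and 19 list members each way.

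Without crush (626), DESeq2, the 5 CPM filter and the sex covariate gave 1178, 388 and 19. At 1 day (3), DESeq2 gave 28 and no filter 7. At 2 days (12), DESeq2, no filter, the 5 CPM filter and the sex covariate gave 618, 23, 58 and 0. The 3-day minus no-crush difference (96) gave 235 in DESeq2, 12 with the sex covariate and 562 without the libraries that stood apart; leaving out single libraries gave 38 to 130. The 3-day minus 2-day difference (0) gave 95 in DESeq2, 80 without the libraries that stood apart and 0 to 1 on leaving out one library; the 3-day minus 4-day difference (0) gave 3 in DESeq2.

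On leaving out each 3-day library, crush-induced genes were called higher 0 to 2 and lower 2 to 19 times, crush-repressed genes higher 10 to 37 and lower 0 to 0 times, and list members higher 2 to 8 and lower 0 to 3 times; with the sex covariate 5 list members were lower. Ssrp1 was -1.12 without NT replicate 2, and its range on leaving out one library was -1.3 to -1.12. Supt16, at -0.01, turned to 0.04 with the 5 CPM filter, 0.03 with the sex covariate, 0.01 without NT replicate 2 and 0.02 without SSRP1KO replicate 1. The causes were not tested.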
